A study of Mus musculus with 12 samples.

Results

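The genes described here are 8 markers of bile duct epithelium and of liver progenitor cells, namely Sox9, Krt7, Krt19, Epcam, Cd24a, Prom1, Cftr and Afp. They were chosen by name and matched to their Ensembl identifiers in the count table, where all 8 of 24187 genes were found, and all 8 passed the low-count filter that left 22581 genes for testing. The counts come from bulk RNA sequencing of whole liver, with 1 library for each listed sample. The mice are C57BL/6J by the series description, though the study's design names the JOlaHsd substrain for its injected mice. The 3 control mice received neither injury nor treatment. The other mice received an overdose of acetaminophen (APAP), a drug that kills hepatocytes through a reactive metabolite, at 350 mg/kg by the sample labels. Of these, 5 received PBS vehicle and 4 received hAAMs, human alternatively activated macrophages grown from blood monocytes. The study names 500 mg/kg and 1000000 hAAMs given 16 h after APAP for its severe model, with collection at 36 h by its methods and 32 h by a legend, and gives APAP mice an age of 10 to 12 weeks. Sex was not given in the labels. Human cells in a mouse host are a limit of the model, and reads from them went through the same alignment to the mouse genome.

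Bile ducts are lined by cholangiocytes, which carry the keratins Krt7 and Krt19, the adhesion protein Epcam and the chloride channel Cftr, and which express the transcription factor Sox9. When hepatocyte regrowth is blocked or the ducts are injured, a ductular reaction of cells with these markers spreads from the portal tracts, and surface proteins such as Cd24a and Prom1 have been used to sort cells with progenitor activity from it. Afp, the fetal counterpart of albumin, is made by hepatoblasts, is silenced after birth and can return in regenerating or malignant liver.

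Total counts per mouse ranged from 47391650 to 74056505, so that 1 count equalled between 0.0148 and 0.0198 counts per 1000000 (CPM) after TMM scaling. The libraries of hAAM mouse 4 and vehicle mouse 3 were nearly alike, and over genes they differed by 1.19 times what counting noise gives, where the remaining 35 pairs of injured livers differed by 2.64 to 6.86 times. They carry different labels and each was kept in its group. Whether they come from 1 liver was not tested, and if they do, the hAAM and vehicle groups share a mouse. Where leaving out both changed a call of a marker, or whether its groups overlapped, this is stated. Hepatocyte markers summed to between 50980 and 92550 CPM, so the tissue carried the markers of its label, while the 1 pancreatic acinar gene in the table summed to at most 0.222 CPM. The median change over all genes, in log2, was 0.01 (vehicle against control) and 0.02 (hAAM against control) with TMM, and 0.36 and 0.32 when libraries were scaled by their size alone.

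Of the 8 markers, Afp alone passed the test against control mice. In vehicle mice, 1 of 8 markers was called at an FDR under 0.05 (edgeR quasi-likelihood test, Benjamini-Hochberg), while 29.8% of all genes tested were called and 15% were called as higher. In hAAM mice, again 1 of 8 was called, against 20.7% of all genes and 10.7% called as higher. The median log2 fold change of the 8 was 0.41 with vehicle and 0.32 with hAAMs. Between hAAM and vehicle mice, edgeR called 0 of the 8 markers and 0% of all genes, with 1 of 8 markers (Sox9) and 5.02% of all genes at an unadjusted p under 0.05. DESeq2 called 1 gene in that comparison, which was not a marker. The count of markers called was thus near the share of all genes called as higher in both comparisons with control.

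**Figure D1:**
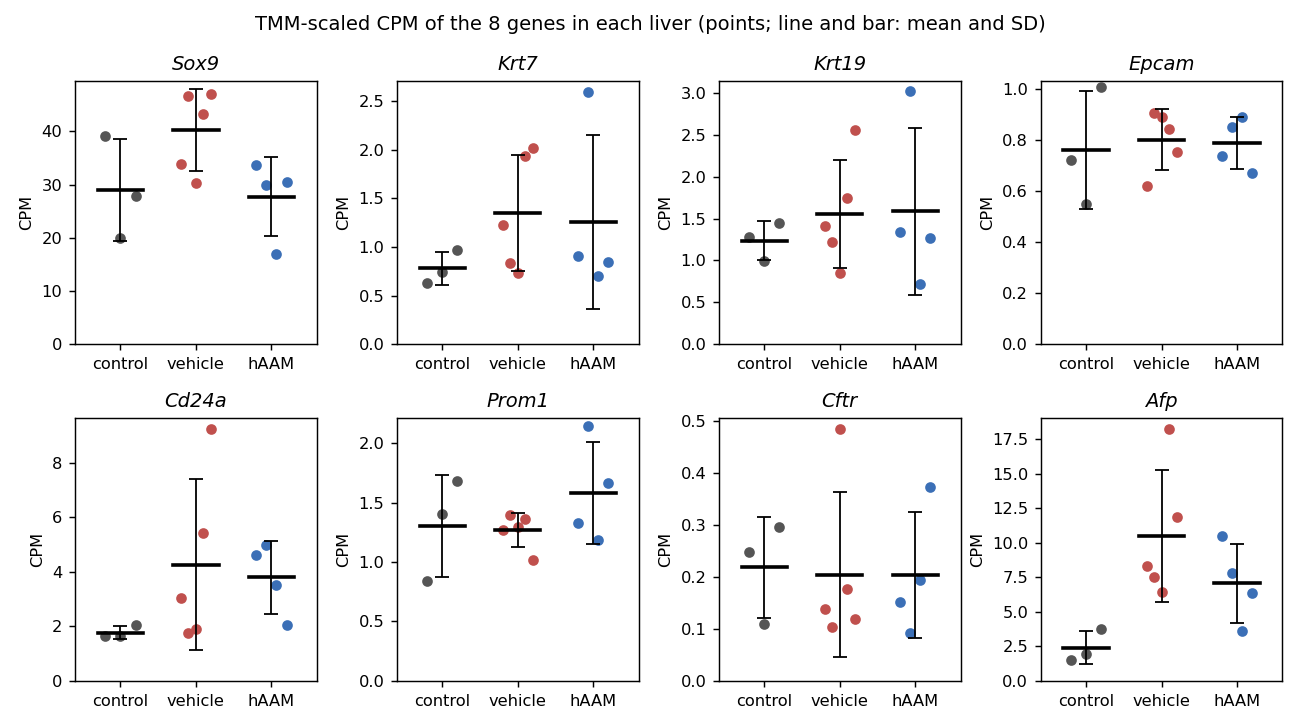
TMM-scaled CPM of each of the 8 markers (linear axes from 0) in the 3 control, 5 vehicle and 4 hAAM mice. Points are single livers, the line is the group mean and the bar is 1 SD. Only in the Afp panel do the vehicle livers, at 6.41 to 18.2 CPM, all lie above the control livers, at 1.51 to 3.73 CPM.

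Afp (ENSMUSG00000054932, GRCm38 chromosome 5 from 90490737 to 90508907, plus strand, 15 exon blocks) had 79, 126 and 189 counts in control mice 1 to 3. These counts equalled 1.51, 1.98 and 3.73 CPM. In vehicle mice 1 to 5 it had 484, 433, 331, 1231 and 803 counts, or 8.33, 7.54, 6.41, 18.2 and 11.9 CPM. Every vehicle liver lay above every control liver, which held for 34.8% of all genes in either direction and for 17.5% with vehicle higher. Without the nearly alike pair the 4 vehicle livers left also lay above every control liver, and 42.3% of all genes then showed no overlap. The mean rose 4.36-fold (95% interval 2.24 to 8.51), from 2.41 ± 1.17 CPM (SD, n = 3) to 10.5 ± 4.78 CPM (SD, n = 5), with a log2 fold change of 2.13 (SE 0.443, edgeR adjusted p = 0.00466). It was called under each of the 21 alternatives tried. In bulk tissue, fewer cells of a type and less RNA per cell cannot be told apart, and likewise for more, so the level does not say how many cells made Afp.

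In hAAM mice 1 to 4, Afp stood at 10.5, 7.83, 3.60 and 6.37 CPM. Mice 1, 2 and 4 lay above all control livers, and mouse 3 lay just below the highest control, so the groups overlapped, while 28.5% of all genes showed no overlap between hAAM and control mice. The mean rose 2.94-fold over control (95% interval 1.50 to 5.77), with a log2 fold change of 1.56 (SE 0.447, edgeR adjusted p = 0.0293). This call was lost when control mouse 1 (FDR 0.102), control mouse 2 (0.0914), hAAM mouse 1 (0.0781) or hAAM mouse 2 (0.063) was left out and under the replicate block (1.37, FDR 0.105), and was kept without hAAM mouse 4 and vehicle mouse 3 (edgeR adjusted p = 0.0374). Between hAAM and vehicle mice, the log2 fold change of Afp was −0.57 (SE 0.369, 95% interval −1.37 to 0.23, edgeR adjusted p = 0.969). Of the 4 hAAM livers, 2 lay below every vehicle liver and none above, and without the nearly alike pair 1 of 3 lay below (log2 fold change −0.66, SE 0.422, edgeR adjusted p = 0.84).

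RefSeq promoter windows of GRCm38.p6, from 250 bases before to 50 bases after each start site, were at hand for 5 of the 8 markers, not for Sox9, Krt19 and Cd24a. The window of Afp, the marker that rose, is shown beside those of Krt7 and Epcam, epithelial markers that were not called. It lies at chr5:90490464-90490763, those of Krt7 and Epcam at chr15:101412153-101412452 and chr17:87635729-87636028, and all are read along the plus strand. Capitals mark matches on either strand to 3 motifs. The core of a TATA box was searched as TATAAA. The core bound by the receptor Nr5a2 was searched as AAGGTCA. The box bound by the factor Sp1 was searched as GGGCGG, which reads as its complement where the match lies on the other strand. No motif overlaps another in these windows.
Afp: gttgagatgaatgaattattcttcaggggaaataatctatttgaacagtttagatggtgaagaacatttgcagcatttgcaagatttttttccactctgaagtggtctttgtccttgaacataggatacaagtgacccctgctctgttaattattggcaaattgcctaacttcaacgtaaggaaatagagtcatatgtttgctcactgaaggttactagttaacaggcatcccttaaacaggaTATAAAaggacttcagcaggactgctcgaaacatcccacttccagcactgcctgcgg
Krt7: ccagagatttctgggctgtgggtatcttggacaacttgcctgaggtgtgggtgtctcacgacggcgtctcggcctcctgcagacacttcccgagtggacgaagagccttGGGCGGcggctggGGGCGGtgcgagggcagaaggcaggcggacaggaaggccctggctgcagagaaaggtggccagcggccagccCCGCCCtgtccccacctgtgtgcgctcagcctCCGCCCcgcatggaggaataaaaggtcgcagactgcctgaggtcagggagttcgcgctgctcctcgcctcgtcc
Epcam: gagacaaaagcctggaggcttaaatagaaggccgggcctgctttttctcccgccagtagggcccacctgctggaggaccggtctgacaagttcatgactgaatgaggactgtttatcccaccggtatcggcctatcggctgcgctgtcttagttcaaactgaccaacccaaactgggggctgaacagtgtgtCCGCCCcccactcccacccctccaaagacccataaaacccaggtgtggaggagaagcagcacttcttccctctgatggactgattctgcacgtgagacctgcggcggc

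The Afp window held the TATA core at −7 from the RefSeq start, and the GENCODE start of the gene lies 23 bases further into the gene. Among 32851 windows, 13.6% held the TATA core on either strand, 4.72% the Nr5a2 core and 35.7% the Sp1 box. The windows of Krt7, Epcam, Cftr and Prom1 (which has 2) did not hold the TATA core, and no marker window held the Nr5a2 core. The Sp1 box matched 4 times in the window of Krt7, 6 times in that of Cftr, 1 time each in those of Epcam and the first of Prom1, and not in that of Afp. GC content was 40.0% in the Afp window, 66.3% in that of Krt7 and 57.0% in that of Epcam, and its median over all windows was 52.7%. The Krt7 window follows a RefSeq start 1360 bases inside the GENCODE gene. These matches describe the letters of the windows and do not show that a factor binds them.

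Of the 6 listed regulators of Afp, 3 fell and 0 rose in each comparison with control, where 14.8% and 9.96% of all genes were called as lower in vehicle and hAAM mice, and their median log2 fold change was −0.41 with vehicle and −0.36 with hAAMs. Zhx2, a repressor that silences Afp after birth, had 43.2, 39.9 and 41.9 CPM in control mice 1 to 3. It had 21.4, 24.8, 26.7, 27.2 and 24.9 CPM in vehicle mice and 27.1, 24.9, 27.2 and 25.3 CPM in hAAM mice. The groups did not overlap with control, and Zhx2 changed, in log2, by −0.74 with vehicle (SE 0.077, edgeR adjusted p = 0.000108) and −0.67 with hAAMs (SE 0.0813, edgeR adjusted p = 0.00048). Nr5a2, a nuclear receptor that can activate the Afp gene, fell with log2 fold changes of −0.71 and −0.62 (edgeR adjusted p = 0.00319 and 0.0128). Cebpa, a hepatocyte transcription factor, fell with −0.47 and −0.41 (edgeR adjusted p = 0.0155 and 0.0458). The Cebpa call held under 18 of 21 alternatives with vehicle and under only 7 of 21 with hAAMs, where leaving out any control mouse, vehicle mouse 1, 2, 3 or 4, or hAAM mouse 1, 2 or 4 ended it (FDR 0.053 to 0.132). That of Nr5a2 in hAAM mice was lost without control mouse 1 (0.0578). Thus a known repressor (Zhx2) and a known activator (Nr5a2) of Afp were lower in injured livers, as was Cebpa, and all 3 kept this sign under each scaling tried. Under library size alone, however, Cebpa was not called in vehicle mice (−0.127, edgeR FDR 0.33) or in hAAM mice (−0.125, edgeR FDR 0.383). Without hAAM mouse 4 and vehicle mouse 3, 3 fell with vehicle and 2 with hAAMs.

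Afp belongs to the albumin family of carrier proteins. None of its other members Alb, Afm and Gc was called in either comparison, where 29.8% and 20.7% of all genes were called. Alb had log2 fold changes of 0.15 (SE 0.281, edgeR adjusted p = 0.729) and 0.20 (SE 0.293, edgeR adjusted p = 0.657). Gc, the vitamin D carrier, came close in vehicle mice, with −0.46 (SE 0.162, edgeR adjusted p = 0.0514) and every vehicle liver below every control liver. DESeq2 called 1 of these 3 genes as lower in vehicle mice. Among the fetal liver genes, 1 of 4 tested rose in each comparison, where 15% and 10.7% of all genes were called as higher, and with 4 genes such a count says little. Hmga2, a chromatin protein of embryonic growth, was at 0.114, 0.157 and 0.217 CPM in control mice and at 4.47, 5.43, 1.43, 5.84 and 4.69 CPM in vehicle mice. In hAAM mice it was at 3.61, 2.26, 0.252 and 1.61 CPM. With vehicle it differed from control by a log2 fold change of 4.74 (SE 0.797, edgeR adjusted p = 0.00156) and 3.56 with hAAMs (SE 0.8, edgeR adjusted p = 0.0106). As with Afp, hAAM mouse 3 was the lowest injured liver and lay beside the controls. Igf2, Dlk1 and Lin28b of this list were not analysed here.

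Sox9 (ENSMUSG00000000567, chromosome 11 from 112782224 to 112787760) was the most abundant marker. It had 39.1, 19.98 and 27.9 CPM in control mice 1 to 3, and 33.8, 46.7, 30.2, 43.3 and 47.0 CPM in vehicle mice 1 to 5. In hAAM mice 1 to 4 it had 33.6, 29.9, 16.9 and 30.5 CPM. Control and vehicle livers overlapped, with 3 of 5 vehicle livers above all controls. The log2 fold change with vehicle was 0.47 (SE 0.25, 95% interval −0.07 to 1.02, edgeR adjusted p = 0.173), and with hAAMs it was −0.07 (SE 0.258, edgeR adjusted p = 0.883), a sign that flipped to 0.26 under library size alone. With the scaling by library size, Sox9 was called in vehicle mice (0.82, edgeR adjusted p = 0.0301). Sox9 had the smallest p of the markers between hAAM and vehicle mice, with a log2 fold change of −0.54 (SE 0.228, edgeR unadjusted p = 0.0362, FDR 0.966), and did not pass the correction. All 4 hAAM livers lay below the vehicle median, and 2 lay below every vehicle liver. Without the nearly alike pair, the 3 hAAM livers left, at 16.9 to 33.6 CPM, all lay below the 4 vehicle livers left, at 33.8 to 47.0 CPM, while 8.26% of all genes showed no overlap in either direction between these livers. The log2 fold change was then −0.68 (SE 0.263, edgeR unadjusted p = 0.0269, FDR 0.693), which again did not pass the correction.

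Notch signalling instructs cells of the early liver to take a duct fate, and Sox9 is among its targets. Of the 12 genes of the Notch list (with Sox4, a partner of Sox9 in duct formation), 7 rose and 0 fell in vehicle mice, and 4 rose and 0 fell in hAAM mice, where 15% and 10.7% of all genes were called as higher. The list's median log2 fold change was 0.72 and 0.70. These counts moved with the processing, and under none of the alternatives did a gene of the list fall. In vehicle mice 10 rose under library size alone, and 4 under the replicate block or without control mouse 1 or 3. In hAAM mice 10 rose under library size alone and 6 with DESeq2 or without vehicle mouse 3. Only 2 rose there under the replicate block or without control mouse 1 or 3 or hAAM mouse 1 or 2, and 1 in a fit of only the 2 groups compared. Without the nearly alike pair 7 and 5 rose. The calls over all 22581 genes moved as well, from 6719 in vehicle mice and 4666 in hAAM mice with TMM. Library size alone called 9747 and 7340, of which 88.6% and 89.4% were higher. The replicate block called 4253 and 2959 genes, and leaving out control mouse 3 called 4633 and 2419. Heyl, a Notch target, rose with log2 fold changes of 1.77 (SE 0.4, edgeR adjusted p = 0.00688) and 1.84 (SE 0.412, edgeR adjusted p = 0.0105), and Sox4 with 1.72 (SE 0.481, edgeR adjusted p = 0.0188) and 1.57 (SE 0.492, edgeR adjusted p = 0.0414). The Sox4 call held under 18 and 11 of 21 alternatives. It was lost in vehicle mice without control mouse 1 (FDR 0.072) or 3 (0.059), and in hAAM mice without any control mouse, vehicle mouse 1, 2 or 5, or hAAM mouse 1 or 2 (0.0507 to 0.127). Hes1, another target, had 4.42, 6.98 and 8.40 CPM in control mice and 15.2 to 23.5 CPM in vehicle mice, a log2 fold change of 1.56 (SE 0.259, edgeR adjusted p = 0.00149). In hAAM mice it had 12.9, 9.44, 11.5 and 19.5 CPM (1.01, SE 0.263, edgeR adjusted p = 0.0194), with no overlap with control, a call that held under 18 of 21 alternatives and was lost without control mouse 1 (FDR 0.0687), under the replicate block (0.0522) and in a fit of only the 2 groups compared (0.0552). Hey1 rose in vehicle mice (1.47, SE 0.402, edgeR adjusted p = 0.0172), a call that held under 18 of 21 alternatives. It was lost without control mouse 1 (FDR 0.0681) or 3 (0.0719) and under the replicate block (0.0925). The log2 fold change of Hey1 was 2.17 without control mouse 2, and Hey1 was not called in hAAM mice (1.23, SE 0.417, edgeR adjusted p = 0.0553). Several genes of this list are also made by vessel and stellate cells, and of the markers of those cells Cdh5 (1.01 and 0.79), Acta2 (2.84 and 2.95) and Col1a1 (2.41 and 2.64) rose in both comparisons on the log2 scale. The endothelial list rose in 2 and 1 of 5 genes and the stellate list in 3 of 5 in each comparison, and 0 genes of either list were called as lower. Some of their genes lay lower without a call, with log2 fold changes of −0.58 and −0.68 for the endothelial lectin Clec4g (edgeR adjusted p = 0.0598 and 0.0532), whose injured livers all lay below control, and of −0.30 and −0.15 for Reln. The part of those cells in the Notch counts was not tested.

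**Figure D2:**
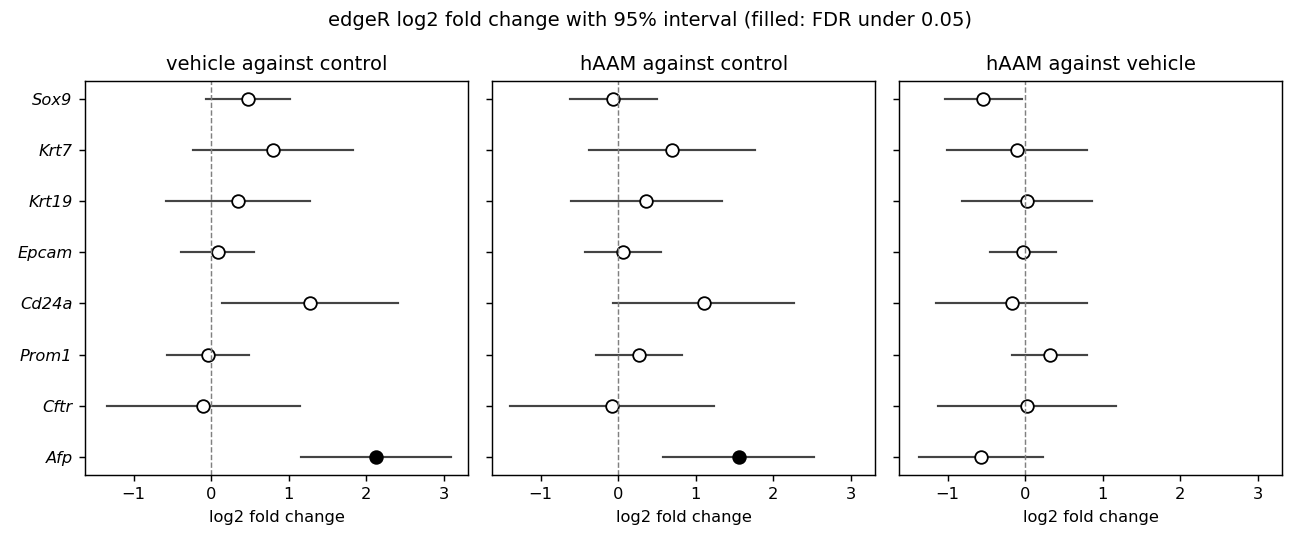
edgeR log2 fold change (horizontal axis) of each marker with its 95% interval in the 3 comparisons between groups. A filled point has an FDR under 0.05. The points of Afp at 2.13 and 1.56 are the filled ones, and the interval of Sox9 between hAAM and vehicle mice runs from −1.03 to −0.04.

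Krt7 and Krt19, the keratins that set cholangiocytes apart from hepatocytes, were low and varied between livers. Krt7 (ENSMUSG00000023039, chromosome 15 from 101411043 to 101430313) had 0.629, 0.739 and 0.968 CPM in control mice, from 33 to 49 counts. It had 1.22, 0.836, 0.736, 1.94 and 2.01 CPM in vehicle mice 1 to 5, and 0.908, 2.59, 0.697 and 0.840 CPM in hAAM mice 1 to 4. Vehicle mice 1, 4 and 5 and hAAM mouse 2 lay above every control liver, and the other injured livers lay within the control range. Against control, its log2 fold change in vehicle livers was 0.80 (SE 0.474, 95% interval −0.23 to 1.83, edgeR adjusted p = 0.222) and 0.70 with hAAMs (SE 0.494, edgeR adjusted p = 0.341), and the latter was 0.07 without hAAM mouse 2.

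Krt19 (ENSMUSG00000020911, chromosome 11 from 100140810 to 100148665, minus strand) followed the same livers. It had 1.28, 0.991 and 1.44 CPM in control mice and 1.41, 1.22, 0.852, 1.75 and 2.56 CPM in vehicle mice 1 to 5. In hAAM mice 1 to 4 it had 1.34, 3.02, 0.717 and 1.27 CPM. The highest livers were hAAM mouse 2 and vehicle mice 5 and 4, and the groups overlapped. In vehicle livers the fitted change was, in log2, 0.34 (SE 0.426, 95% interval −0.59 to 1.27, edgeR adjusted p = 0.578) and 0.36 with hAAMs (SE 0.446, edgeR adjusted p = 0.598), the latter turning to −0.15 without hAAM mouse 2.

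Krt7 and Krt19 are also keratins of the mesothelium, the sheet that covers the liver. The 6 mesothelial markers summed to 5.35 to 7.74 CPM in control mice, 4.30 to 11.5 CPM in vehicle mice and 5.04 to 16.7 CPM in hAAM mice. Of these, 0 of 6 were called in any comparison, where 29.8% (vehicle) and 20.7% (hAAM) of all genes were called against control and 0% between the treatments. Their sum was highest in hAAM mouse 2, at 16.7 CPM, followed by vehicle mouse 5, at 11.5 CPM, and vehicle mouse 4, the livers that in the same order were highest for Krt19. Without Lrrn4, the listed gene nearest to Krt7 in its pattern over livers, hAAM mouse 2 (14.3 CPM) and vehicle mouse 5 (9.76 CPM) still led, while hAAM mouse 1 (7.98 CPM) and vehicle mouse 1 (7.91 CPM) lay above vehicle mouse 4 (7.39 CPM). The defining markers Msln and Upk3b were present in every liver, at 0.975 to 4.30 CPM and 0.813 to 3.91 CPM. The part of mesothelium in the keratin values was not tested.

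Krt8 and Krt18, the keratin pair that hepatocytes share with duct cells, differed from Krt7 and Krt19 in passing the test, with 2 of 2 higher in both comparisons, where 15% and 10.7% of all genes were called as higher. Krt8 had 155 to 171 CPM in control mice and 636, 777, 411, 689 and 684 CPM in vehicle mice, with no overlap. In hAAM mice it had 796, 520, 185 and 399 CPM. With vehicle it differed from control by a log2 fold change of 1.97 (SE 0.374, edgeR adjusted p = 0.00287) and 1.54 with hAAMs (SE 0.377, edgeR adjusted p = 0.015). Krt18 followed with 1.49 (SE 0.345, edgeR adjusted p = 0.00772) and 1.13 (SE 0.35, edgeR adjusted p = 0.0398), and in hAAM mouse 3 it lay within the control range. In hAAM mice the call of Krt8 was lost without control mouse 1 (FDR 0.0506) or 3 (0.0538), and that of Krt18 held under 12 of 21 alternatives and was lost without any control mouse, vehicle mouse 1 or 2, or hAAM mouse 1 or 2 (0.0505 to 0.122). The difference in response between the keratin pairs was not tested.

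Cd24a (ENSMUSG00000047139, chromosome 10 from 43578284 to 43584265), a surface protein of duct and progenitor cells that is also carried by immature B cells, neutrophils and red cell precursors, had the highest fold change after Afp. It had 1.64, 1.64 and 2.04 CPM in control mice. In vehicle mice 1 to 5 it had 3.03, 1.74, 1.90, 5.43 and 9.25 CPM, and in hAAM mice 1 to 4 it had 4.64, 5.00, 3.51 and 2.04 CPM. Vehicle mice 2 and 3 lay among the controls, and hAAM mouse 4 lay at the highest control. The log2 fold change with vehicle was 1.28 (SE 0.52, 95% interval 0.15 to 2.41, edgeR adjusted p = 0.0828), which missed the threshold. The FDR was 0.0322 with DESeq2 and 0.0291 with edgeR under library size alone, and edgeR called it without vehicle mouse 2 (0.0451), without vehicle mouse 3 (0.0438) and without the nearly alike pair (0.0385). Without vehicle mouse 5 the log2 fold change was 0.78 (edgeR adjusted p = 0.179), and with a replicate block it was 0.62 (edgeR adjusted p = 0.406). With hAAMs it was 1.10 (SE 0.536, edgeR adjusted p = 0.164), and 3 of 4 hAAM livers lay above all controls. Those 3 are the hAAM livers left without the nearly alike pair, where 34.1% of all genes showed no overlap with control.

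Vehicle mouse 5, the liver with the highest Cd24a, also had the highest sums of B-lineage markers (6.79 CPM), neutrophil markers (41.8 CPM) and erythroid markers (1410 CPM). Vehicle mouse 4, with the next highest Cd24a, had a neutrophil sum of 41.3 CPM but a B-lineage sum of 2.055 CPM, within the control range. The next highest B-lineage sum, 4.55 CPM, was that of hAAM mouse 3, where Cd24a stood at 3.51 CPM. The B-lineage sum ranged from 1.38 to 2.77 CPM in control mice, 1.88 to 6.79 CPM in vehicle mice and 2.94 to 4.55 CPM in hAAM mice. Of its 5 genes 0 were called, where 29.8% and 20.7% of all genes were called in vehicle and hAAM mice against control. The neutrophil sum ranged from 6.88 to 27.9 CPM, 10.8 to 41.8 CPM and 12.02 to 37.6 CPM in the same order, and 0 of 7 were called. The erythroid sum ranged from 119 to 193 CPM, 162 to 1410 CPM and 165 to 521 CPM. Among 4 tested, Hbb-bs and Hba-a1 were higher and Alas2 lower in vehicle mice, and Alas2 was lower in hAAM mice, beside the same shares of all genes. Their part in the Cd24a values was not tested.

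**Figure D3:**
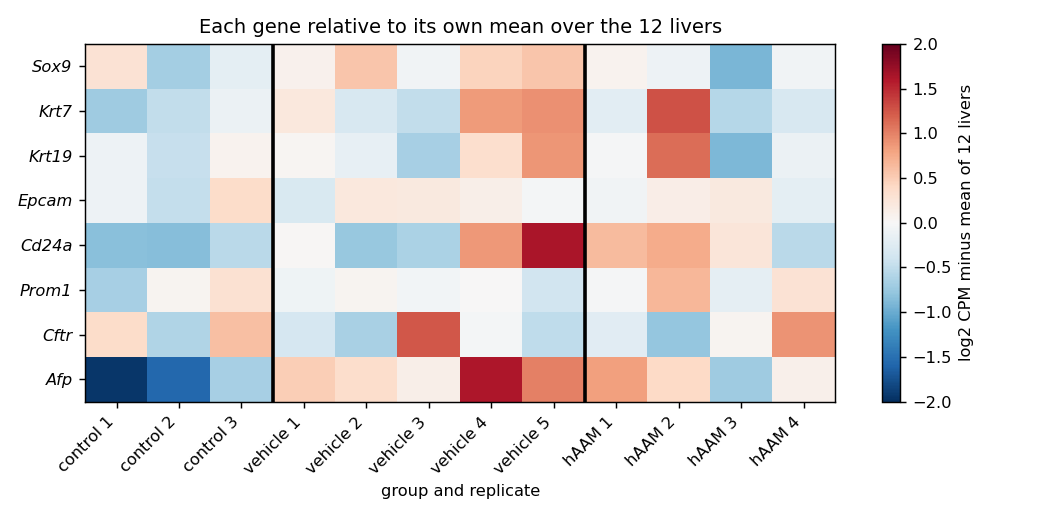
Each marker's log2 CPM (with a prior count of 2) minus its own mean over the 12 livers, by group and replicate. Red is above and blue below the mean, in log2 units. Afp is blue in all 3 control livers and in hAAM mouse 3, and vehicle mice 4 and 5 are red for Sox9, Krt7, Krt19, Cd24a and Afp.

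Epcam (ENSMUSG00000045394, chromosome 17 from 87635979 to 87651129), an adhesion protein of duct cells and hepatoblasts that adult hepatocytes lack, had the smallest root mean square spread of log2 CPM over the 12 livers as a whole (0.233), though its spread was not the smallest within every group. It had 0.724, 0.551 and 1.01 CPM in control mice, 0.619, 0.905, 0.891, 0.843 and 0.754 CPM in vehicle mice, and 0.738, 0.852, 0.891 and 0.672 CPM in hAAM mice. Every injured liver lay within the control range. Against control, its log2 fold change in vehicle livers was 0.08 (SE 0.214, 95% interval −0.38 to 0.55, edgeR adjusted p = 0.8) and 0.06 with hAAMs (SE 0.225, 95% interval −0.43 to 0.55, edgeR adjusted p = 0.881). With 35 to 57 counts per liver, a rise above 1.46-fold lies outside both intervals.

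Prom1 (ENSMUSG00000029086, chromosome 5 from 43993620 to 44102032, minus strand), a membrane protein used as a stem and progenitor marker, had 0.839, 1.40 and 1.68 CPM in control mice. It had 1.27, 1.39, 1.297, 1.36 and 1.02 CPM in vehicle mice, all within the control range, and 1.32, 2.15, 1.18 and 1.66 CPM in hAAM mice. In vehicle livers the fitted change was, in log2, −0.04 (SE 0.243, 95% interval −0.57 to 0.49, edgeR adjusted p = 0.913), turning to 0.30 under library size alone, and 0.27 with hAAMs (SE 0.254, edgeR adjusted p = 0.475). Only hAAM mouse 2 lay above all controls. Exons of Prom1, Krt7 and Cftr share 424, 77 and 129 bases with antisense genes that have no row in the count table, and whether the counting used strand was not stated.

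Cftr (ENSMUSG00000041301, chromosome 6 from 18170687 to 18322768), the channel through which cholangiocytes secrete chloride into bile, was near the limit of detection. It had 7 to 15 counts in control mice, 6 to 25 in vehicle mice and 5 to 20 in hAAM mice, or 0.0926 to 0.484 CPM. The groups overlapped, and the highest livers were vehicle mouse 3 (0.484 CPM) and hAAM mouse 4 (0.373 CPM), the nearly alike pair. With vehicle it differed from control by a log2 fold change of −0.10 (SE 0.573, 95% interval −1.35 to 1.15, edgeR adjusted p = 0.914) and −0.08 with hAAMs (SE 0.606, edgeR adjusted p = 0.94), and these became −0.65 and −0.55 without that pair. Under library size alone they turned to 0.24 and 0.21.

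Ordered by level per kb of exon, Sox9 led in every group, at 7.01 ± 2.32 CPM per kb in the control livers (SD, n = 3), 9.72 ± 1.87 CPM per kb with vehicle (SD, n = 5) and 6.70 ± 1.79 CPM per kb with hAAMs (SD, n = 4). Its livers did not overlap with those of the next marker. Afp, Cd24a and Krt19 came next in control mice, at 0.715, 0.686 and 0.667 CPM per kb, with ranges that overlapped from one to the next. In vehicle mice Afp stood at 3.11 and Cd24a at 1.65 CPM per kb, again overlapping, while Krt19 stood at 0.839. Epcam followed at 0.347, 0.366 and 0.359 CPM per kb in control, vehicle and hAAM mice. Prom1 and Krt7 overlapped in all 3 groups, and Cftr was last, at 0.0263 to 0.0281 CPM per kb in control and vehicle mice, without overlap with the marker above it.

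**Figure D4:**
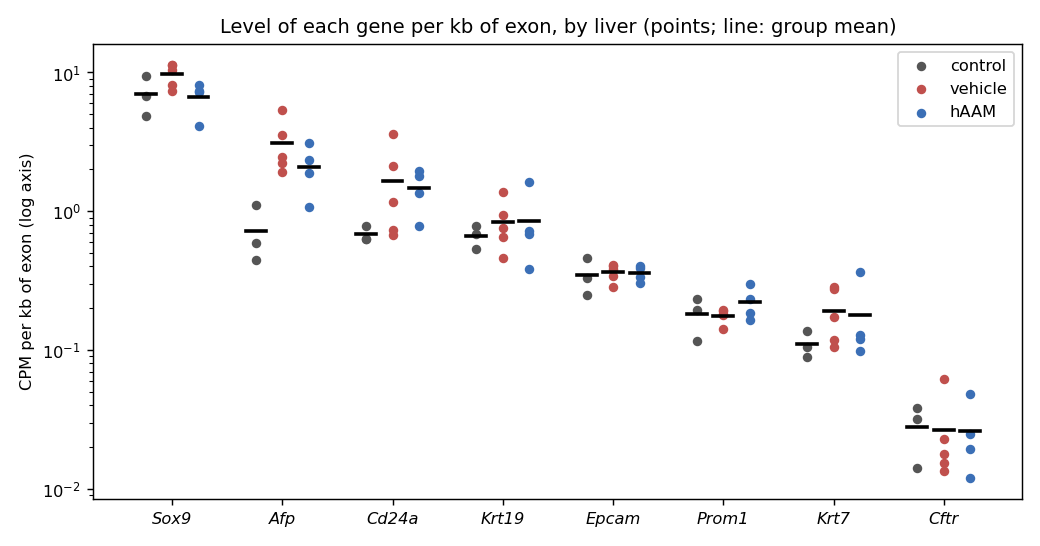
CPM per kb of exon (log axis) of the 8 markers, with single livers as points coloured by group and the group mean as a line. Sox9 lies between 4.08 and 11.4 CPM per kb and Cftr between 0.0119 and 0.0623 CPM per kb, and Afp shows a gap between control and vehicle livers.

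The markers did not all follow the same livers. Vehicle mice 4 and 5 were each among the 3 highest of 12 livers for 5 markers (Sox9, Krt7, Krt19, Cd24a and Afp), and hAAM mouse 2 for 4 (Krt7, Krt19, Cd24a and Prom1). hAAM mouse 3 was the lowest of the 9 injured livers for 4 markers (Sox9, Krt7, Krt19 and Afp) and among the 3 lowest of all for 5. Control mouse 2 was among the 3 lowest for 6 and control mouse 1 for 4, while control mouse 3 had the highest Epcam. Epcam, Prom1 and Cftr were not among the 3 highest in vehicle mice 4 or 5.

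For each marker, the 2 genes of the 22581 with the smallest root mean square difference in centred log2 CPM over the 12 livers were listed. For Krt7 they were Lrrn4 (0.24), which is also on the mesothelial list, and the potassium channel subunit Kcne3 (0.246), against a spread of Krt7 itself of 0.633. For Krt19 they were Nup210l (0.279) and Krt7 (0.284). For Afp they were Spred3 (0.309), an inhibitor of Ras signalling, and the acetylcholine receptor subunit Chrnb1 (0.331), against a spread of 1.00. For Cd24a they were Hcst (0.322) and Cd33 (0.323), genes of immune cells. For Sox9 they were Zswim4 (0.195) and Col13a1 (0.212), for Epcam Mok (0.128) and Angpt1 (0.139), and for Prom1 the pseudogenes Gm49244 (0.174) and Gm32256 (0.176). For Cftr they were Gm22823 (0.348) and Gm16553 (0.362). A likeness over 12 livers is a description, and the livers share their group and library.

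Other genes of duct epithelium were called about as often as genes at large. Of 23 listed, 21 were in the table and 20 were tested, of which 3 rose and 3 fell in vehicle mice and 2 rose and 2 fell in hAAM mice, where 29.8% and 20.7% of all genes were called, and the median log2 fold change was 0.01 and 0.07. Cldn4, a tight junction protein, was at 0.229, 0.330 and 0.257 CPM in control mice and rose to 0.981 to 2.87 CPM in vehicle mice, a log2 fold change of 2.82 (SE 0.559, edgeR adjusted p = 0.00356). Ddr1, a collagen receptor, rose with 1.78 (SE 0.442, edgeR adjusted p = 0.0109) and 1.53 (SE 0.451, edgeR adjusted p = 0.0322), and Cldn4 rose in hAAM mice with 2.03 (edgeR adjusted p = 0.0273). Slc10a2, which takes up bile acids from bile, fell with −1.18 (SE 0.242, edgeR adjusted p = 0.00427) and −0.94 (SE 0.257, edgeR adjusted p = 0.0245). Onecut2, a transcription factor of duct and hepatocyte development, fell with −1.06 (SE 0.183, edgeR adjusted p = 0.00176) and −1.08 (SE 0.194, edgeR adjusted p = 0.00401). In control mice the means of Onecut2 (313 CPM) and Slc10a2 (74.0 CPM) lay far above those of Krt19 (1.24 CPM) and Epcam (0.761 CPM), unlike Cldn4. Which cells made these transcripts was not tested. The remaining calls in vehicle mice, named after their values were seen, were Bicc1 (0.82, edgeR adjusted p = 0.035) and Dcdc2a (−0.65, edgeR adjusted p = 0.0404). Of the 21 alternatives, 15 kept the call of Bicc1, which was lost without any control mouse or vehicle mouse 1 or 4, and 14 that of Dcdc2a, lost without control mouse 1 or 3 or vehicle mouse 1, 4 or 5. In hAAM mice the calls of Cldn4, Ddr1 and Slc10a2 held under 14, 15 and 15 of 21. Those of Cldn4 and Ddr1 were lost without any control mouse or hAAM mouse 1 or 2 (FDR 0.0519 to 0.099), and that of Slc10a2 without control mouse 2 or 3 or hAAM mouse 1 or 2 (0.0556 to 0.116). Under library size alone 10 rose and 2 fell in vehicle mice and 7 rose and 1 fell in hAAM mice. That scaling called 9747 and 7340 of all 22581 genes in vehicle and hAAM mice, and 88.6% and 89.4% of those called were higher. Without the nearly alike pair 4 rose and 4 fell in vehicle mice and 4 rose and 2 fell in hAAM mice. Sctr and Krt20 were not analysed here.

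Among the signals of the ductular reaction, 2 of 4 tested rose and 1 fell in vehicle mice, and 1 rose and 1 fell in hAAM mice, where 29.8% and 20.7% of all genes were called. With so few genes these counts say little about the list. Tnfrsf12a, the receptor through which Tnfsf12 drives progenitor growth, had 4.29 to 4.78 CPM in control mice. It had 27.98, 25.8, 16.6, 27.2 and 37.4 CPM in vehicle mice and 27.0, 26.2, 5.44 and 17.5 CPM in hAAM mice. No injured liver overlapped with control, though hAAM mouse 3 came close, and the log2 fold change was 2.57 (SE 0.443, edgeR adjusted p = 0.00177) and 2.07 (SE 0.444, edgeR adjusted p = 0.00867). Its ligand Tnfsf12 was not called (0.21 and 0.34). Itgb6, an integrin subunit of activated duct cells, rose in vehicle mice (2.78, SE 0.688, edgeR adjusted p = 0.0107) from 8, 1 and 2 counts in control mice to between 9 and 56 counts. Its size rests on few control counts, and the log2 fold change was 4.05 without control mouse 1 and 2.26 without control mouse 2. It was not called in hAAM mice (1.57, SE 0.762, edgeR adjusted p = 0.163). Fgfr2, a receptor of which the ligand Fgf7 supports progenitors, fell in both (−0.79 and −0.73, edgeR adjusted p = 0.000617 and 0.00239).

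**Figure D5:**
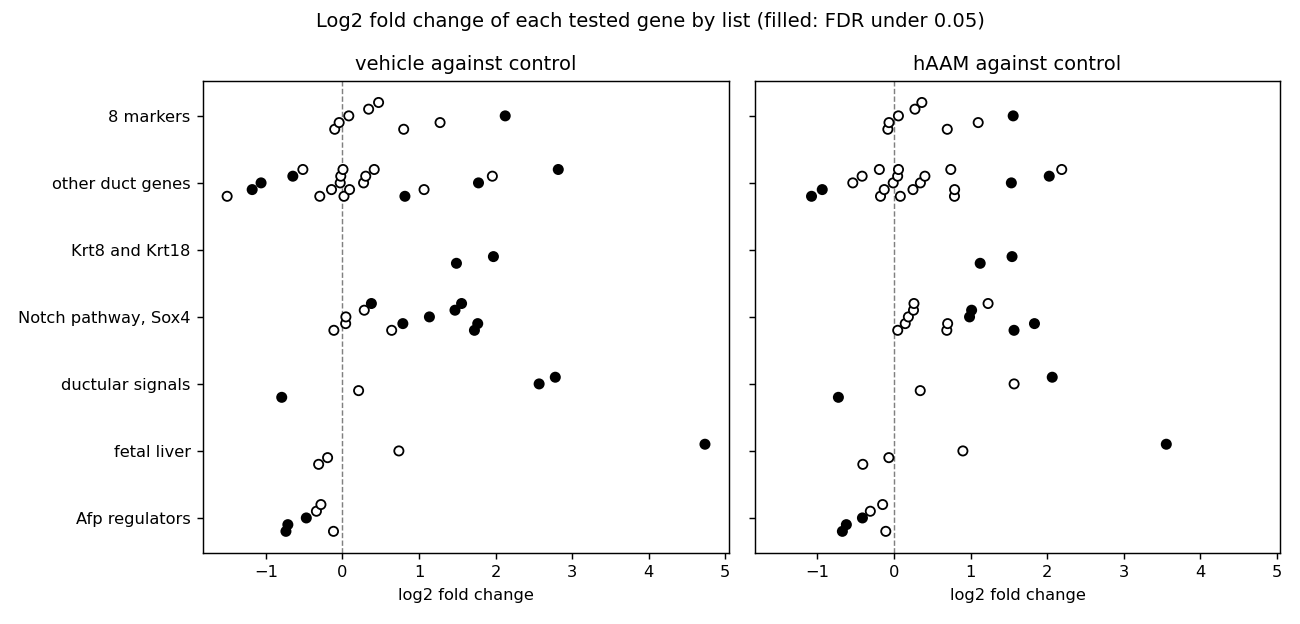
edgeR log2 fold change (horizontal axis) of each tested gene of the 8 markers and of 6 related lists, against control mice, in vehicle mice (left) and hAAM mice (right). Filled points have an FDR under 0.05. The Notch list has 7 and 4 filled points, all above 0, the Afp regulators 3 and 3, all below 0, and the other duct genes have filled points on both sides.

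Between hAAM and vehicle mice, the log2 fold changes of the 8 markers lay between −0.57 (Afp) and 0.32 (Prom1, SE 0.221, edgeR adjusted p = 0.973). No marker separated the 2 groups without overlap, and 1.4% of all genes did. Without the nearly alike pair Sox9 alone of the 8 did, by the narrow gap given above, against 8.26% of all genes. The 95% interval was −0.45 to 0.40 for Epcam, −1.01 to 0.80 for Krt7, −0.81 to 0.86 for Krt19, −1.15 to 0.80 for Cd24a and −1.13 to 1.17 for Cftr. These widths leave room for changes of that size in either direction. In each related list described above, 0 genes were called by edgeR in this comparison, with 1 of 20 other duct genes, 1 of 12 Notch genes, 1 of 4 ductular signals, 1 of 4 fetal liver genes and 0 of 6 Afp regulators at an unadjusted p under 0.05, which 5.02% of all genes had.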

How the data were processed

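Groups, replicate numbers and dose came from the sample labels. The authors extracted RNA from about 10 mg of frozen liver, depleted ribosomal RNA and prepared directional libraries. The submitters' processing notes name Cutadapt 4.6, STAR 2.7.1a and the build GRCm38, and the study's methods name summarizeOverlaps for counting. What was deposited are raw counts that the authors made per Ensembl gene, not normalized, and each gene had at least 15 counts over the 12 livers. Exon lengths, symbols and coordinates came from GENCODE vM21 of GRCm38.

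Counts were filtered with filterByExpr by group, TMM-scaled and fitted with edgeR 4.0.16 (R 4.3.3) in one quasi-likelihood model of all 12 livers, with 3 two-sided contrasts and the Benjamini-Hochberg FDR over 22581 genes at a threshold of 0.05. CPM are TMM-scaled, log2 CPM have a prior count of 2, and per-kb levels divide by the union of exons. DESeq2 1.42.0 was an alternative. Other alternatives changed scaling, filter, dispersion and samples, added a replicate block or left out single livers. The scripts were tested on simulated data. The markers and related lists were chosen with earlier results of these data known. Named genes were the 8 markers, up to 4 called genes per list by size of change against control, and the 2 nearest genes of each marker. Alb, Gc, Tnfsf12, Msln, Upk3b, Clec4g, Reln, Clec4f, Bicc1 and Dcdc2a stand outside this rule and were added after values were seen. Reads without molecular identifiers are not independent molecules, so counting limits cover counting error only. The labels' protocol names 14 libraries and lists 12 samples. Sequence windows came from RefSeq. Certain genes of the lists are not reported here.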

Additional observations from a re-analysis of the deposited data

Results flagged for a closer look

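In 50 groups of 4 or 5 livers, marker by marker and list sum by list sum, 4 held a liver far from the others of its group by Dixon's test, and chance alone gives about 1 in 20. Krt7 in hAAM mouse 2 stood at 2.59 CPM, against 0.697 to 0.908 CPM in the other hAAM mice. Cftr in vehicle mouse 3 stood at 0.484 CPM, from 25 counts, against 0.104 to 0.177 CPM in the other vehicle mice. The summed B-lineage markers of vehicle mouse 5 stood at 6.79 CPM, against 1.88 to 2.42 CPM in the other vehicle mice. The summed erythroid markers of the same mouse stood at 1410 CPM, against 162 to 364 CPM.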

How the results depend on the processing

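Of 24 marker results (8 markers, 3 comparisons), 8 kept their direction and their side of the threshold under every alternative, 12 of the 21 alternatives leaving out 1 liver. Calls against control rested on 3 control livers. DESeq2 called 2 markers (Afp and Cd24a) and 7678 genes in vehicle mice and 1 gene between hAAM and vehicle mice. Library size alone called 3 markers and 9747 genes in vehicle mice and 7340 genes in hAAM mice against control, and 88.6% and 89.4% of genes called in vehicle and hAAM mice were then higher, against 50.3% and 51.8% with TMM. It turned Prom1 and Cftr in vehicle mice to 0.30 and 0.24, Sox9 and Cftr in hAAM mice to 0.26 and 0.21, and Cftr between the treatments to −0.03. A fit of only the 2 groups compared called 2729 genes in hAAM mice against control, on fewer livers. Leaving out hAAM mouse 4 and vehicle mouse 3 called 2 markers and 6743 genes in vehicle mice and turned Krt19 and Epcam between the treatments to −0.040 and 0.079. A filter of 10 counts in every liver removed Cftr. The causes of these differences were not tested.

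The replicate numbers recur across groups, but livers with the same number did not deviate together (r from −0.458 to 0.385 over 10 pairs, and from −0.477 to 0.502 over 37 other pairs), so no pairing was assumed. The replicate block called 4253 genes in vehicle mice, 2959 genes and 0 markers in hAAM mice against control (Afp 1.37, edgeR FDR 0.105). It turned Krt19 and Prom1 in vehicle mice to −0.037 and 0.037, and Krt7, Cd24a and Cftr between the treatments to 0.025, 0.43 and −0.093.

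Without single livers, 1 to 2 markers and 4633 to 7197 genes were called in vehicle mice, with 2 markers without vehicle mouse 2 or 3. In hAAM mice against control 0 to 1 were called, with 0 without control mouse 1 or 2 or hAAM mouse 1 or 2. Called genes ran from 2419 (without control mouse 3) to 5456 in hAAM mice against control, with 3027, 2799 and 2942 without control mouse 1, hAAM mouse 1 and hAAM mouse 2, and from 0 to 1 (without vehicle mouse 3) between the treatments. Log2 fold changes that crossed 0 ran from −0.66 to 0.19 (Cftr), −0.11 to 0.34 (Epcam) and −0.28 to 0.17 (Prom1) in vehicle mice. In hAAM mice against control they ran from −0.55 to 0.21 (Cftr), −0.14 to 0.31 (Epcam), −0.15 to 0.61 (Krt19) and −0.28 to 0.21 (Sox9). Between the treatments they ran from −0.37 to 0.32 (Cd24a), −0.45 to 0.58 (Cftr), −0.10 to 0.045 (Epcam), −0.49 to 0.28 (Krt19) and −0.73 to 0.094 (Krt7). With at most 25 counts per liver, Cftr had the widest intervals.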

Other observations

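Genes of other liver cells give the setting of the markers. Of 5 macrophage markers, 2 rose in each comparison with control, where 15% and 10.7% of all genes were called as higher. They were Cd68, with log2 fold changes of 2.21 (SE 0.194, edgeR FDR 4.4e-05) in vehicle mice and 2.10 (SE 0.198, edgeR FDR 0.000127) in hAAM mice, and Marco, a scavenger receptor, with 1.68 and 1.48. Clec4f, a marker of Kupffer cells, lay lower without a call (−0.48 and −0.36, edgeR FDR 0.126 and 0.303). Of 6 hepatocyte markers, 1 was called as lower in vehicle mice and 0 in hAAM mice, where 14.8% and 9.96% of all genes were called as lower. Cyp2e1, the enzyme that forms the toxic metabolite of APAP, fell in vehicle mice with −2.37 (SE 0.654, edgeR FDR 0.0177) and was not called in hAAM mice (−1.64, SE 0.693, edgeR FDR 0.114). None of the 4 proliferation markers was called by edgeR in a comparison with control, where 29.8% and 20.7% of all genes were called in vehicle and hAAM mice. An unadjusted p under 0.05 was found for 1 and 2 of them in vehicle and hAAM mice, and for 41.8% and 35.2% of all genes. Their sum ran from 17.8 to 22.5 CPM in control mice, 15.2 to 61.1 CPM in vehicle mice and 21.5 to 85.2 CPM in hAAM mice.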
